A study of Mus musculus with 12 samples.

Results

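Mouse primary astrocytes labelled GADD45G were compared with astrocytes labelled shLuc, the control of the knockdown experiment of the same study, to see which of the differences from the GFP control also held against a control from the other experiment. The 6 libraries compared, 3 of GADD45G and 3 of shLuc, were 6 of the 12 in the series, and the 3 GFP libraries were used as the other control. All groups were astrocytes grown from neonatal cortex of wild-type C57BL/6J mice at postnatal day 3, purified at confluency, transduced, and held for 1 week in a serum-free C2 medium before total RNA was taken. The GADD45G and GFP cells were deposited in the table of the overexpression experiment, and the shLuc cells in that of the knockdown experiment, together with a group labelled shGADD45G. The vector, its promoter, the share of cells transduced and the species and length of the GADD45G insert are not stated in the labels. Every GADD45G library thus differs from every shLuc library in the introduced construct, in the experiment and in any batch that goes with it, and these cannot be told apart.

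GADD45 proteins are small proteins induced by stress and DNA damage. They bind and activate the kinase MTK1 (the product of Map3k4), which lies above the p38 and JNK kinases. Interferon-stimulated genes are switched on when interferon receptors activate a complex of STAT proteins and IRF9, which binds a promoter element called ISRE. The integrated stress response slows protein synthesis and raises the factor ATF4, which turns on genes of amino acid transport and synthesis through elements of its own.

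Counts were available for 22845 genes in both tables. Total counts over all listed genes were 17810863 to 18777231 in GADD45G libraries, 16179509 to 18970492 in shLuc libraries and 19480657 to 20756461 in GFP libraries. Levels are given as CPM, counts divided by library size on 1 common scale for these 9 libraries, and they compare a gene between libraries, not genes with each other. Whether replicates were separate cultures is not stated in the labels, so a p-value here reflects the spread among these libraries, which may be technical only. Chi-square values per degree of freedom for pairs of replicates, which are near 1 when only counting error separates them, were 4.23 for GADD45G 1 against 2, 15.0 and 16.0 for the pairs with GADD45G 3, 2.23 to 2.98 for shLuc and 2.11 to 3.15 for GFP. GADD45G 3 also held RNA of genes that the other libraries lacked: the lung and red cell marker genes among the joined genes summed to 1340 CPM in it, against 1.03 to 2.06 CPM in the other GADD45G libraries and 1.82 to 2.5 CPM in shLuc libraries. Counts over all genes, and named values that a fit without GADD45G 3 moved by over 1.5-fold or across the threshold, are therefore also given without it. The astrocyte markers Gfap, Slc1a3, Aldh1l1, Aqp4, S100b, Sox9, Gja1 and Slc1a2 summed to 4040 to 4640 CPM in GADD45G libraries, 4530 to 4550 CPM in shLuc libraries and 2400 to 2410 CPM in GFP libraries, and none of them was at 0.

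Gadd45g itself (gene ENSMUSG00000021453, mm10 chromosome 13, positions 51846678 to 51848468, plus strand, protein coding) stood at 149, 143 and 138 CPM in GADD45G libraries, against 142, 153 and 131 CPM in shLuc libraries and 121, 132 and 133 CPM in GFP libraries. The GADD45G and shLuc values overlapped. The log2 fold change was 0.01 against shLuc (SE 0.06, with an adjusted p = 0.926 by the quasi-likelihood test of edgeR) and 0.15 against GFP (SE 0.05, adjusted p = 0.0301). Exact two-sided permutation tests of the log2 CPM gave p = 0.9 against shLuc and p = 0.1 against GFP, where 0.1 is the smallest that 3 libraries against 3 allow. A higher level of the mouse transcript in GADD45G libraries, small against GFP, was thus not detected against shLuc. Directions below are those between labelled groups.

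The other members of the family differed from shLuc, and Gadd45a also from GFP. Gadd45a, a p53 and stress target, had 95.7, 93.1 and 91.3 CPM in GADD45G libraries, against 23, 22.1 and 23.4 CPM in shLuc libraries and 8.96, 10.8 and 9.83 CPM in GFP libraries. Its log2 fold change was 2.02 against shLuc (SE 0.05, adjusted p = 2.14e-10 in edgeR) and 3.24 against GFP, with no overlap in either comparison. The share of all genes without overlap was not counted, so lack of overlap, here and below, does not set a gene apart. Gadd45b, the NF-kB-induced member, had 38.5 to 42.2 CPM in GADD45G libraries, against 22.3 to 23.6 CPM in shLuc libraries (log2 fold change 0.81, SE 0.06, adjusted p = 1.57e-06 in edgeR).

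Of the 18 genes in the list of GADD45 proteins and their kinases, 6 rose and 3 fell against shLuc, and 3 rose and 3 fell against both controls. Across all 15112 genes tested against shLuc, 47.7% were called at an adjusted p under 0.05, 24.1% higher and 23.6% lower. Against both controls, 14.9% of all genes tested were higher and 12.3% lower, and the list's counts against both were near these shares. Map2k6, which encodes the p38-activating kinase MKK6, was the member with the largest difference, at 0.0557, 0.108 and 0.495 CPM in GADD45G libraries, against 4.14, 5.69 and 4.91 CPM in shLuc libraries and 9.78, 10.0 and 11.3 CPM in GFP libraries. The log2 fold change was -4.45 against shLuc (SE 0.50, adjusted p = 2.79e-05 in edgeR) and -5.52 against GFP. Most of the residual Map2k6 signal came from GADD45G 3. In the other 2 GADD45G libraries 3 counts remained, against 258 in shLuc, which is a 60.1-fold lower level (95% exact counting interval 20.3 to 293). Mapk14, the p38-alpha kinase, fell by 0.52 on the log2 scale against shLuc (SE 0.05) and by 0.46 against GFP, and Map3k4, which encodes MTK1, fell by 0.29 and by 0.40. Mapk8 (JNK1) was higher against shLuc by 0.53 (SE 0.07) but not against GFP, where the log2 fold change was -0.13 (adjusted p = 0.148 in edgeR).

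Across the transcriptome, 3638 genes were higher and 3568 lower in GADD45G than in shLuc libraries. Differences of at least 2-fold were called for 780 higher genes (5.16%) and 747 lower genes (4.94%). Without GADD45G 3 the shares called higher and lower were 25.8% and 25.8%, and those of at least 2-fold were 4.93% and 6.75%. Against GFP the same GADD45G libraries gave larger shares, with 30.6% of genes higher and 29.7% lower, and 9.08% and 9.55% at least 2-fold higher and lower. The share of genes called was larger between the controls than between GADD45G and either control. Such a share depends also on the spread among replicates, which was widest in the pairs with GADD45G 3. It therefore does not rank the sizes of the differences. Between shLuc and GFP 67.2% of the 15357 genes tested were called, 33.5% higher and 33.7% lower in shLuc. That contrast is the direct test of whether the difference from shLuc and the difference from GFP are unequal. On the first principal component of log2 CPM, which carried 61.6% of the variance, the GADD45G libraries (-39.6 to -37.3) and the shLuc libraries (-19.7 to -19.1) lay apart from the GFP libraries (57.5 to 57.6), and the next component (25.7%) set the GADD45G libraries (-34.1 to -25.7) apart from the shLuc libraries (35.2 to 35.9).

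Among 14844 genes tested against both controls, 2214 (14.9%) were higher and 1831 (12.3%) lower in GADD45G libraries than in each control. Without GADD45G 3 these shares were 16.5% and 13.9%. The comparisons share the GADD45G libraries, so their overlap carries no test. Of the 4702 genes higher against GFP, 2214 (47.1%) were also higher against shLuc, 1875 (39.9%) were not called and 613 (13.0%) were lower. Of the 4277 genes lower against GFP, 1831 (42.8%) were also lower against shLuc, 1899 (44.4%) were not called and 547 (12.8%) were higher. Counted from the other side, those shared genes were 60.9% of the genes higher and 52.3% of the genes lower against shLuc.

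Larger differences were counted in the same way. Of 1388 genes at least 2-fold higher than in GFP libraries, 816 (58.8%) were higher against shLuc and 486 (35.0%) were at least 2-fold higher. For 273 of them (19.7%) the 95% interval of the fold change against shLuc lay inside 1.5-fold, and 118 (8.5%) were lower than in shLuc libraries. Of 1179 genes at least 2-fold lower than in GFP libraries, 531 (45%) were lower against shLuc and 278 (23.6%) were at least 2-fold lower. For 232 of those (19.7%) the interval against shLuc lay inside 1.5-fold, and 123 (10.4%) were higher. Without GADD45G 3 the upward and downward shares at least 2-fold against both were close, at 469 of 1380 genes (34%) and 434 of 1372 genes (31.6%).

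**Figure D1:**
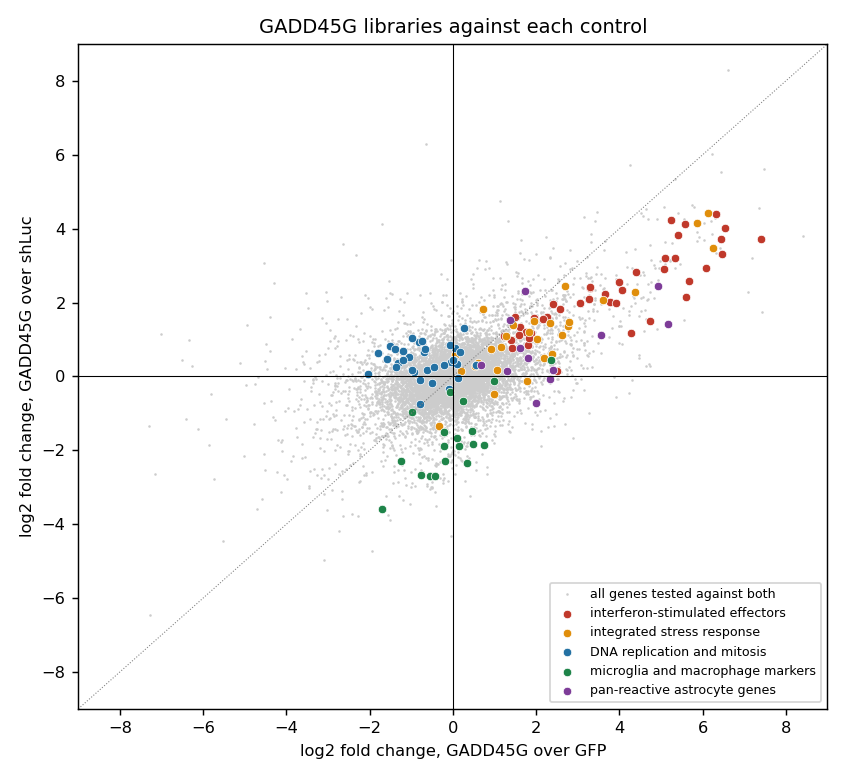
Each grey point is a gene tested against both controls, with the log2 fold change of GADD45G over GFP on the horizontal axis and of GADD45G over shLuc on the vertical axis, and coloured points mark members of 5 gene lists; the dotted line marks equal fold changes. Interferon-stimulated and integrated stress response genes lie mostly in the upper right, DNA replication and mitosis genes mostly upper left, and microglia markers mostly low and near 0 on the horizontal axis.

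Interferon-stimulated effector genes, whose products block viral replication or sense viral RNA, were higher in GADD45G libraries almost throughout. Of 43 tested members of a list of 44, 42 rose against shLuc and 39 of them at least 2-fold, with a median log2 fold change of 2.01, against 0.01 over all genes tested. All 43 rose against GFP, with a median of 3.66, and 39 of the 42 members tested between the controls were higher in shLuc than in GFP libraries. The GADD45G level thus stood above an intermediate shLuc level for most members. The member not called against shLuc was Epsti1, at 0.613, 1.03 and 1.48 CPM in GADD45G libraries, against 0.753, 1.17 and 0.866 CPM in shLuc libraries.

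Ifi44, an interferon-induced protein that limits viral growth, had 296, 283 and 258 CPM in GADD45G libraries, against 15.9, 17.4 and 18.3 CPM in shLuc libraries and 3.16, 2.43 and 3.41 CPM in GFP libraries. Every GADD45G library lay above every control library. The log2 fold change was 4.01 against shLuc (SE 0.07, adjusted p = 6.87e-11 in edgeR) and 6.54 against GFP. Mx1, a dynamin-like antiviral GTPase, had 55.7, 55.2 and 47.6 CPM in GADD45G libraries, against 2.45, 2.18 and 2.89 CPM in shLuc libraries (log2 fold change 4.39, SE 0.11, and 6.32 against GFP). Oas1a, which makes the second messenger that activates RNase L, had 39.1, 35.9 and 36.7 CPM in GADD45G libraries, against 2.38, 2.76 and 3.29 CPM in shLuc libraries and 0.305, 0.0952 and 0.243 CPM in GFP libraries. Its log2 fold changes were 3.71 and 7.41. Rsad2 (viperin) rose by 3.83 against shLuc and 5.40 against GFP, Isg15, the ubiquitin-like modifier, by 3.21 and 5.33, Ifit1, which binds foreign RNA caps, by 2.91 and 5.08, and Usp18, which removes ISG15 and dampens receptor signalling, by 2.41 and 3.30. None of these groups overlapped, a trait whose share over all genes was not counted. Leaving out GADD45G 3 changed none of these 7 log2 fold changes against shLuc by more than 0.1.

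The promoters of several of these genes carry the ISRE, and a stretch of each is printed so that the element can be seen beside the levels above. The sequences are RefSeq's (GRCm38.p6), read on the strand of the gene. Capitals mark every match to GAAANNGAAA or its reverse complement TTTCNNTTTC, including overlapping matches, within 250 bases upstream of the start.
Isg15 (chr4:156200850-156200921, minus strand): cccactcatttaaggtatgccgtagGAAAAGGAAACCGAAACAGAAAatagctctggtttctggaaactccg
Ifit1 (chr19:34640760-34640838, plus strand): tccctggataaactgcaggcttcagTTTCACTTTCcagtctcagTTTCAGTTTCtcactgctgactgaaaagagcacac
Oas1a (chr5:120907526-120907570, minus strand): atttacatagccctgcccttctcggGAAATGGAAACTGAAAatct
Rsad2 (chr12:26456538-26456597, minus strand): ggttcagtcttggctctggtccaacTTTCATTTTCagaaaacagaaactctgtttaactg
Gbp2 (chr3:142620579-142620638, plus strand): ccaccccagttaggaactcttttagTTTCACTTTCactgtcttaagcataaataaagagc
Tgtp1 (chr11:48992289-48992348, minus strand): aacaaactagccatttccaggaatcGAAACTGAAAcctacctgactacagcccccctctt
H2-T23 (chr17:36032791-36032850, minus strand): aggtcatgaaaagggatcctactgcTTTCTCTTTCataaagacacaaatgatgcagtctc

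Isg15 held 3 overlapping matches between 78 and 57 bases upstream of its start, Ifit1 held 2 and Oas1a held 2. Ifi44 and Irf7 held none in this window, and no promoter was found for Mx1, Usp18 or Iigp1. A match was present in 3.46% of all 27025 promoters of the table and in 3.2% of the 10407 protein-coding genes tested against both controls whose promoter was found. It was present in 55 of 319 genes at least 2-fold higher against both controls (17.2%), in 9 of 206 genes at least 2-fold higher against GFP and inside 1.5-fold against shLuc (4.37%), and in 2 of 165 genes at least 2-fold lower against both (1.21%). Among the lists it was present in 12 of 33 interferon-stimulated effectors (36.4%), 9 of 10 guanylate-binding and immunity-related GTPases (90%) and 3 of 17 MHC class I genes (17.6%). A match is a description of these letters and not evidence of binding.

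The guanylate-binding proteins and immunity-related GTPases, interferon-gamma-inducible proteins that attack the vacuoles of intracellular pathogens, all rose at least 2-fold. The 16 members tested had a median log2 fold change of 2.5 against shLuc and 4.17 against GFP. Iigp1 had 150, 156 and 163 CPM in GADD45G libraries, against 19.0, 18.6 and 19.7 CPM in shLuc libraries and 6.31, 5.43 and 4.67 CPM in GFP libraries (log2 fold change 3.03 against shLuc, SE 0.06, adjusted p = 6.87e-11 in edgeR). Gbp2 had 232 to 245 CPM in GADD45G libraries, against 41.0 to 43.6 CPM in shLuc libraries and 31.7 to 33.2 CPM in GFP libraries (2.5 against shLuc, SE 0.05). Its shLuc and GFP levels were closer than those of Iigp1. Tgtp1 and Tgtp2, near-identical copies whose reads cannot be assigned with certainty, stood at 15.9 to 17.9 CPM and at 14.5 CPM in every GADD45G library, against 0.502 to 1.01 and 0.462 to 0.879 CPM in shLuc libraries (log2 fold changes 4.58 and 4.29).

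Of the 20 genes of MHC class I presentation, which loads peptides for display to CD8 T cells, 19 rose against shLuc, 17 rose against both controls and none fell against shLuc. The median log2 fold change was 0.91 against shLuc and 1.71 against GFP. H2-T23, a nonclassical class I molecule, had 214, 211 and 224 CPM in GADD45G libraries, against 24.9, 27.8 and 26.1 CPM in shLuc libraries and 6.62, 7.09 and 5.35 CPM in GFP libraries. Its log2 fold change was 3.03 against shLuc (SE 0.06, adjusted p = 7.97e-11 in edgeR). The classical heavy chain H2-K1 had 1375, 1397 and 1339 CPM in GADD45G libraries, against 614, 631 and 604 CPM in shLuc libraries (1.15, SE 0.04), and the light chain B2m had 1433, 1376 and 1400 CPM, against 708, 703 and 687 CPM (1.00, SE 0.04). H2 genes are similar in sequence, and the labels do not state how reads shared among them were counted. Erap1, which trims peptides, was higher against shLuc by 0.25 (SE 0.05, adjusted p = 0.0013 in edgeR) and lower against GFP by a log2 fold change of -0.14 (adjusted p = 0.0258).

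Of 17 interferon receptors, kinases, STATs and IRFs tested, 7 rose against both controls, all of them transcription factors or the inhibitor Socs1, and none of the receptor chains was called higher. Irf7, the factor that amplifies interferon production, had 242, 243 and 219 CPM in GADD45G libraries, against 25.9, 26.7 and 26.4 CPM in shLuc libraries and 9.01, 8.33 and 8.61 CPM in GFP libraries (log2 fold change 3.15 against shLuc, SE 0.06). Stat2 rose by 1.40 and 2.08 against shLuc and GFP, Irf9 by 0.97 and 1.79 and Irf1 by 0.76 and 1.44. The receptor chain Ifnar1 had 59.3 to 68.7 CPM in GADD45G libraries and 57.7 to 61.5 CPM in shLuc libraries (log2 fold change 0.11, adjusted p = 0.177 in edgeR), against 120 to 128 CPM in GFP libraries, where its log2 fold change was -0.95. The receptor chain Ifngr2 (-0.17) and Irf8 (-1.26, and -2.26 without GADD45G 3), a factor of microglia, fell against shLuc. Ifnb1, which encodes interferon beta, had too few counts to be tested, at 0.446, 0.543 and 0.22 CPM in GADD45G libraries, against 0.251, 0 and 0 CPM in shLuc libraries and 0, 0.0476 and 0.0486 CPM in GFP libraries.

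NF-kB genes and chemokines held less uniformly. Of 22 subunits, inhibitors and targets of NF-kB, 18 rose against GFP (median log2 fold change 0.80) and 10 rose against both controls, while 4 fell against shLuc (median 0.22). Vcam1, an adhesion molecule, had 536 to 579 CPM in GADD45G libraries, against 339 to 354 CPM in shLuc libraries and 141 to 146 CPM in GFP libraries (0.70 against shLuc, SE 0.04, and 1.98 against GFP). Icam1, the other endothelial and glial adhesion target, had 72.6 to 79.7 CPM in GADD45G libraries, against 80.2 to 89.6 CPM in shLuc libraries and 18.9 to 21.9 CPM in GFP libraries. It was higher against GFP (1.91) and lower against shLuc (-0.18, SE 0.06, adjusted p = 0.0243 in edgeR). Il6 was not tested for low counts and stood at 0.557, 0.38 and 0.879 CPM in GADD45G libraries, against 0.0628, 0.106 and 0.115 CPM in shLuc libraries and 0 counts in GFP libraries, which is at least 12.3-fold higher than the floor of 3 counts over the GFP group.

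Of 14 chemokines tested, 6 rose against both controls and 3 fell against shLuc. Cxcl10, which attracts T cells and is itself interferon-induced, had 223, 219 and 197 CPM in GADD45G libraries, against 41.0, 38.5 and 38 CPM in shLuc libraries and 6.92, 7.38 and 6.76 CPM in GFP libraries (log2 fold change 2.44 against shLuc, SE 0.06, adjusted p = 2.14e-10 in edgeR). Ccl5 rose by 3.55 and 4.74 against shLuc and GFP, Ccl2, which attracts monocytes, by 2.28 and 4.75, and Cxcl1, which attracts neutrophils, by 2.93 and 5.33. Ccl3 fell, with 0.651 to 1.39 CPM in GADD45G libraries, against 5.89 to 7.12 CPM in shLuc libraries (log2 fold change -2.59, SE 0.28). Tnf likewise fell, with 0.271 to 0.55 CPM in GADD45G libraries, against 2.31 to 3.99 CPM in shLuc libraries (-2.95, SE 0.37). Both are made largely by microglia in the brain, and the 19 microglia and macrophage markers were lower as well, at 87.6 to 355 summed CPM in GADD45G libraries, against 419 to 477 CPM in shLuc libraries. Their part in the Ccl3 and Tnf differences was not tested. Cxcl5 and Cxcl14 were close in GADD45G and shLuc libraries, with log2 fold changes of 0.23 (adjusted p = 0.323 in edgeR) and -0.18 (adjusted p = 0.0241), although they differed from GFP by -3.44 and 2.34.

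The integrated stress response was the other group that held. Of 28 tested genes of a list of 29, 24 rose and 3 fell against shLuc, with a median log2 fold change of 1.11, and 23 rose against both controls (median 1.89 against GFP). Between the controls, 23 of 28 were higher and 2 lower in shLuc than in GFP libraries (median 0.94). Nupr1, a stress-induced chromatin protein, had 108, 106 and 119 CPM in GADD45G libraries, against 5.46, 6.11 and 6.81 CPM in shLuc libraries and 2.24, 1.57 and 1.85 CPM in GFP libraries (4.16 against shLuc, SE 0.08, adjusted p = 7.97e-11 in edgeR). Slc7a11, the cystine importer that feeds glutathione synthesis, had 67.5, 80.3 and 69.2 CPM in GADD45G libraries, against 2.89, 4.31 and 2.83 CPM in shLuc libraries (4.41, SE 0.13). Trib3, a pseudokinase that restrains ATF4 signalling, had 79.7, 72.9 and 66.2 CPM, against 7.34, 6.33 and 6.00 CPM in shLuc libraries (3.47, SE 0.09). No GADD45G library overlapped a control library for these genes. Atf3 rose by 2.29 against shLuc, Chac1, which degrades glutathione, by 2.07, Asns, the asparagine synthetase, by 1.49, Ddit3 (CHOP) by 1.21 and Atf4 itself by 0.80.

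The 3 members that fell against shLuc were Phgdh (-1.34) and Psph (-0.47), enzymes of serine synthesis, and Slc3a2 (-0.12), the partner chain of several amino acid transporters. Psph and Slc3a2 were higher than in GFP libraries, by 0.98 and 1.78. Phgdh was lower than in both, with 86.2 to 104 CPM in GADD45G libraries, against 233 to 244 CPM in shLuc libraries and 118 to 123 CPM in GFP libraries. Of 20 cytosolic aminoacyl-tRNA synthetases, which charge tRNAs and include known ATF4 targets, 16 rose against both controls, each by less than 2-fold against shLuc. Their median log2 fold change was 0.44 against shLuc and 0.61 against GFP. Eprs had 258 to 285 CPM in GADD45G libraries, against 143 to 155 CPM in shLuc libraries and 111 to 117 CPM in GFP libraries (0.84, SE 0.05), and Gars rose by 0.71 and 0.75.

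The promoters of 5 of the genes that rose are printed because they hold an ATF4 element, written here as TGATGNAA or TTNCATCA on the other strand and marked by capitals.
Slc7a11 (chr3:50443628-50443704, minus strand): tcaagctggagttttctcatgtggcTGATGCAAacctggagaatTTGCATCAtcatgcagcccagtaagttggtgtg
Nupr1 (chr7:126625548-126625605, minus strand): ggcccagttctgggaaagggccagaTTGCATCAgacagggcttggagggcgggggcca
Atf3 (chr1:191183411-191183468, minus strand): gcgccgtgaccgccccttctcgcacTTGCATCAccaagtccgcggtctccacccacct
Chac1 (chr2:119351024-119351081, plus strand): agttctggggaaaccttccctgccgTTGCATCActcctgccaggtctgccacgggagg
Asns (chr6:7693210-7693257, minus strand): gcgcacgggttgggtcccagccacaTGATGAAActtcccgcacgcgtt

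Slc7a11 held 2 matches, between 66 and 40 bases upstream. The element was present in 7 of 26 promoters of the stress response list (26.9%) and 3 of 12 of the synthetases (25%), against 2.4% of the tested protein-coding genes and 3.91% of all promoters. Over wider sets it did not follow direction, since it was present in 15 of 319 genes at least 2-fold higher against both controls (4.7%) and 12 of 165 genes at least 2-fold lower against both (7.27%). Trib3, Gdf15, Psat1 and Eprs were also searched and held none in this window.

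**Figure D2:**
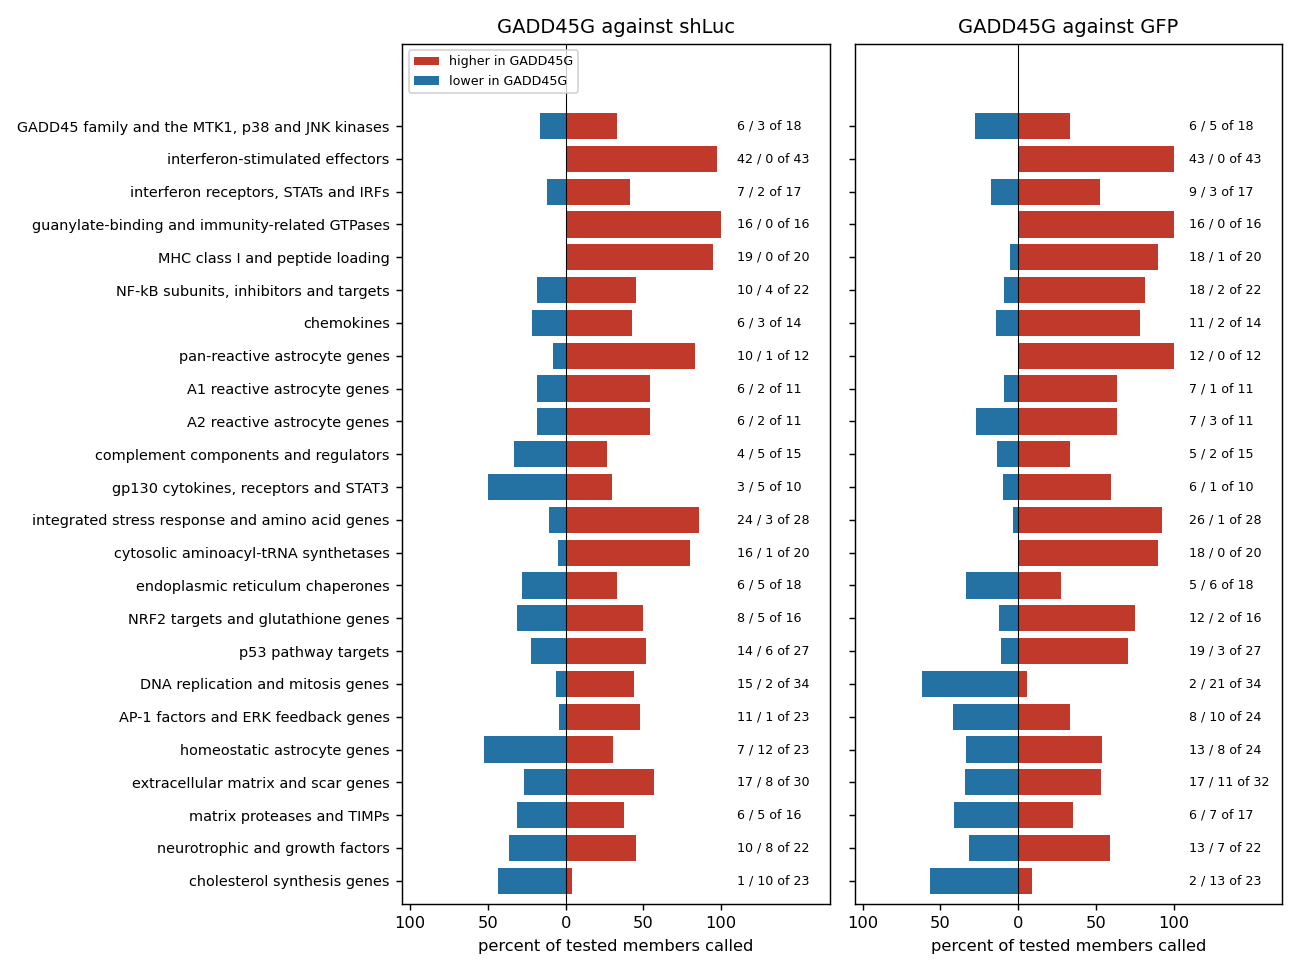
Bars give the percent of tested members of each of 24 gene lists that were called higher (red, to the right) or lower (blue, to the left) in GADD45G libraries, against shLuc on the left and against GFP on the right, with the counts higher / lower of those tested. Interferon, GTPase, MHC class I, stress response and synthetase lists are mostly red in both panels, while DNA replication and mitosis genes are red against shLuc (15 of 34 higher) and blue against GFP (21 of 34 lower).

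Other stress lists moved less. Over all genes tested, 24.1% were higher and 23.6% lower against shLuc, and 30.6% and 29.7% against GFP. Against both controls the shares were 14.9% and 12.3%. Every list count, above and below, is to be read beside these shares. Of 27 p53 targets, 14 rose against both controls and 6 fell against shLuc. Gdf15, a stress cytokine, rose most, with 18.6 to 23.8 CPM in GADD45G libraries, against 3.00 to 3.46 CPM in shLuc libraries and 1.57 to 2.5 CPM in GFP libraries (2.66 against shLuc, SE 0.14). The cell cycle inhibitor Cdkn1a rose by 0.28 and 0.61, and Mdm2, the ligase that degrades p53, by 0.24 and 0.35. Of 16 NRF2 and glutathione genes, 8 rose and 5 fell against shLuc, against 12 and 2 against GFP. Of 18 chaperones and folding enzymes of the endoplasmic reticulum, 6 rose and 5 fell against shLuc, against 5 and 6 against GFP, and none of them differed from shLuc by 2-fold.

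Genes of reactive astrocytes, the state astrocytes enter after injury or inflammation, stood high against GFP and differed member by member against shLuc. All 12 tested pan-reactive genes rose against GFP (median log2 fold change 1.90) and 10 rose against shLuc (median 0.63), while 10 were higher in shLuc than in GFP libraries. Lcn2, a secreted siderophore-binding protein, had 460, 415 and 413 CPM in GADD45G libraries, against 162, 161 and 158 CPM in shLuc libraries and 12.8, 11.0 and 12.2 CPM in GFP libraries (1.41 against shLuc, SE 0.05, and 5.16 against GFP). Gfap, the intermediate filament that defines reactive astrocytes, had 1207, 1265 and 1094 CPM in GADD45G libraries, against 1051, 1036 and 1042 CPM in shLuc libraries and 228, 224 and 225 CPM in GFP libraries. Its log2 fold change was 2.40 against GFP but 0.18 against shLuc (SE 0.05, adjusted p = 0.00758 in edgeR). Osmr, the oncostatin M receptor, had 111, 108 and 108 CPM in GADD45G libraries and 112, 113 and 113 CPM in shLuc libraries (-0.06, SE 0.05, adjusted p = 0.314), against 20.6 to 22.2 CPM in GFP libraries. Serpina3n, a secreted protease inhibitor, was higher than GFP by 2.00 and lower than shLuc by -0.73, with 92.4, 90.9 and 132 CPM in GADD45G libraries, against 172, 181 and 168 CPM in shLuc libraries. Hspb1, a small heat shock protein, showed the opposite order of controls and rose by 2.32 against shLuc and 1.73 against GFP.

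Among 11 genes of the set called A1, 6 rose and 2 fell against shLuc. The 6 were H2-T23, H2-D1, Iigp1, Gbp2, Psmb8 and Amigo2, of which the first 5 also stand in the interferon-related lists. Without GADD45G 3, 5 genes fell instead of 2. Serping1, the C1 inhibitor, was among them, with 43.0, 43.1 and 116 CPM in GADD45G libraries, against 63.4, 57.8 and 57.1 CPM in shLuc libraries. Its log2 fold change was 0.17 with all libraries (adjusted p = 0.674 in edgeR) and -0.48 without GADD45G 3 (adjusted p = 7.79e-07). Among 11 genes of the set called A2, 6 rose and 2 fell against shLuc. Ptx3, a secreted pattern recognition protein, had 98.5, 93.8 and 83.7 CPM in GADD45G libraries, against 12.2, 11.3 and 11.1 CPM in shLuc libraries and 14.9 to 16.5 CPM in GFP libraries (2.99, SE 0.07). Clcf1, a gp130 cytokine, rose by 1.68 and 1.90 against shLuc and GFP. Cd109 rose by 0.64 against shLuc and was lower than GFP by -1.33, and Emp1 fell by 1.09 against shLuc.

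Complement genes moved in both directions against shLuc. C3, the central component of the cascade, had 2024, 2129 and 2159 CPM in GADD45G libraries, against 1658, 1645 and 1689 CPM in shLuc libraries and 83.9, 80.2 and 75.6 CPM in GFP libraries. Its log2 fold change was 4.72 against GFP and 0.33 against shLuc (SE 0.04, adjusted p = 1.95e-05 in edgeR), and shLuc exceeded GFP by 4.38. C4b followed with 3.24 and 0.54. The receptors C3ar1 and C5ar1, found mostly on microglia in the brain, fell by 1.95 and by 2.21 against shLuc, beside the lower microglia markers given above. C3ar1 had 1.67, 3.04 and 8.46 CPM in GADD45G libraries, against 16.2 to 18 CPM in shLuc libraries, and its log2 fold change was -2.85 without GADD45G 3. Of 15 complement genes tested, 4 rose and 5 fell against shLuc, and 3 rose and 7 fell without GADD45G 3. In the gp130 and STAT3 list, 3 of 10 rose and 5 fell against shLuc, against 6 and 1 against GFP.

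DNA replication and mitosis genes were higher or not called against shLuc for most members and lower against GFP for most. Of 34 members, 15 rose and 2 fell against shLuc (median log2 fold change 0.45), whereas 2 rose and 21 fell against GFP (median -0.72). Both calls, higher than shLuc and lower than GFP, were made for 6 members, while 14 that were lower than GFP were not called against shLuc. Between the controls, 30 of 34 were lower in shLuc. Top2a, the mitotic topoisomerase, had 20.3, 15.6 and 20.3 CPM in GADD45G libraries, against 10.1, 12.8 and 10.3 CPM in shLuc libraries and 29.0, 31.0 and 30.2 CPM in GFP libraries. The GADD45G libraries overlapped neither control (0.75 against shLuc, SE 0.14, adjusted p = 0.000861 in edgeR, and -0.68 against GFP). Cdk1, which drives entry into mitosis, was higher against shLuc by 0.84 and near GFP (-0.08, adjusted p = 0.599). Mki67, a marker of cycling cells, had 2.06, 2.06 and 7.09 CPM in GADD45G libraries, against 2.57 to 2.71 CPM in shLuc libraries. It was not called against shLuc with all libraries (0.48, adjusted p = 0.391) or without GADD45G 3 (-0.38, adjusted p = 0.24). Rrm2, a ribonucleotide reductase subunit, fell against both, by 0.74 and by 0.79.

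Of 23 AP-1 factors and ERK feedback genes tested against shLuc, 11 rose and 1 fell (2 without GADD45G 3), against 8 and 10 of 24 against GFP. Fosl2 had 243, 238 and 217 CPM in GADD45G libraries, against 62.0, 60.8 and 61.9 CPM in shLuc libraries and 116 to 122 CPM in GFP libraries (1.91, SE 0.05, and 0.97 against GFP). Myc rose by 1.77 and 2.53. Dusp6, the phosphatase induced by ERK, was low in GADD45G and shLuc libraries alike, at 13.7 to 21.9 and 16.4 to 18.1 CPM, against 96.0 to 98.2 CPM in GFP libraries. It was not called against shLuc with all libraries (-0.10, adjusted p = 0.653 in edgeR) and was called lower without GADD45G 3 (-0.38, adjusted p = 0.00371). Spry2, an inhibitor of receptor signalling, fell against both, by 1.02 and by 0.76.

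Homeostatic genes of resting astrocytes moved in both directions against each control. Over all genes tested, 30.6% were higher and 29.7% lower against GFP, and 24.1% and 23.6% against shLuc. Against GFP 13 of 24 rose and 8 fell, and against shLuc 7 of 23 rose and 12 fell (median log2 fold changes 0.20 and -0.20). Of the members tested against both, 5 rose against both, 5 fell against both, 5 were higher than GFP and lower than shLuc, and 1 was the reverse. Aqp4, the water channel of astrocyte endfeet, had 277, 284 and 252 CPM in GADD45G libraries, against 614, 604 and 631 CPM in shLuc libraries and 115 to 118 CPM in GFP libraries. It was thus higher than GFP by 1.21 and lower than shLuc by -1.19 (SE 0.05, adjusted p = 7.99e-09 in edgeR). Apoe, the lipid carrier, showed the same order, with 3681, 3803 and 3573 CPM in GADD45G libraries, against 6286, 6273 and 5817 CPM in shLuc libraries and 1588 to 1602 CPM in GFP libraries (-0.74 and 1.21). Gja1 (connexin 43) and Sox9 showed it too, at -0.56 and -0.34 against shLuc and 1.18 and 1.37 against GFP. Aldoc and Id4 fell against both, by 1.12 and by 0.87 against shLuc. In such bulk samples, fewer cells of a type and less RNA per cell cannot be told apart.

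Of 30 matrix and scar genes tested against shLuc, 17 rose and 8 fell, and 10 rose against both controls. Over all genes tested, 24.1% were higher and 23.6% lower against shLuc, and 14.9% were higher against both. Tnc (tenascin-C), a matrix protein of glial scars, had 994, 1027 and 917 CPM in GADD45G libraries, against 230, 220 and 220 CPM in shLuc libraries and 33.9 to 35.3 CPM in GFP libraries (2.12, SE 0.05, adjusted p = 1.56e-10 in edgeR, and 4.83). Adamts1, a matrix protease, had 266 to 301 CPM in GADD45G libraries, against 72.7 to 74.9 CPM in shLuc libraries (1.95, and 1.14 against GFP). Bcan (brevican) was lower than shLuc by -1.24 and higher than GFP by 0.91. Fibroblast-type members rested in part on GADD45G 3. Col1a1 had 3.62, 3.37 and 53.3 CPM in GADD45G libraries, against 0.628 to 1.22 CPM in shLuc libraries, with a log2 fold change of 4.30 that was 1.76 without GADD45G 3, and Fn1 had 375, 373 and 615 CPM, against 66.9 to 74.5 CPM (2.65, and 2.36 without it). The fibroblast and mural markers summed to 439 and 451 CPM in GADD45G 1 and 2 and 784 CPM in GADD45G 3, against 328 to 336 CPM in shLuc libraries and 946 to 969 CPM in GFP libraries. The members were unequal. Acta2 and Col1a2 had 507 to 525 and 388 to 403 CPM in GFP libraries, while Col3a1 and Dcn had at most 0.973 and 0.356 CPM there. In GADD45G 3 Col3a1 and Dcn had 137 and 57.2 CPM. The part of these markers in the Col1a1 and Fn1 differences was not tested.

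Of 22 neurotrophic and growth factors, 9 rose and 6 fell against both controls, beside 14.9% and 12.3% of all genes tested. Vegfa rose by 1.39 and 1.44. Fgf1 fell, with 32.9, 40.5 and 36.9 CPM in GADD45G libraries, against 230, 213 and 222 CPM in shLuc libraries and 57.1 to 61.8 CPM in GFP libraries (-2.60, SE 0.07). Ptn (pleiotrophin) had 17.1, 17.2 and 20.3 CPM in GADD45G libraries, against 45 to 55 CPM in shLuc libraries and 1264 to 1270 CPM in GFP libraries. The difference from GFP (-6.12) was thus far larger than that from shLuc (-1.43, SE 0.10). Of 23 cholesterol synthesis genes, 1 was higher (3 without GADD45G 3) and 10 were lower against shLuc, 9 of them also lower against GFP. Hmgcs1, an early enzyme of the pathway, had 183 to 208 CPM in GADD45G libraries, against 301 to 317 CPM in shLuc libraries (-0.68, SE 0.05), and Dhcr7, the last enzyme, fell by 0.50 and by 0.97. Among 16 matrix proteases and inhibitors, 6 rose and 5 fell against shLuc, beside 24.1% and 23.6% of all genes tested.

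The genes with the largest differences that held against both controls without GADD45G 3 too were named by rule, from 1891 genes eligible upward and 1532 downward. Cdsn (corneodesmosin), an adhesion protein of skin, led the upward set with 39.5, 41.2 and 35.3 CPM in GADD45G libraries, against 0.0628, 0.0532 and 0.231 CPM in shLuc libraries and 0.153, 0.381 and 0.632 CPM in GFP libraries. Its log2 fold change was 8.30 against shLuc (SE 0.21, adjusted p = 2.16e-10 in edgeR) and 6.60 against GFP. Most of the few Cdsn counts of the shLuc group lay in shLuc 3. Without that library the log2 fold change against shLuc was 9.22, a value that rests on very few control counts. Mrgprf, an orphan receptor, had 3.79 to 5.48 CPM in GADD45G libraries, against 0 to 0.213 CPM in shLuc libraries (5.55, SE 0.52), most of which lay in shLuc 2. Against the 3 counts of the GFP group its level was 97.9-fold higher (95% exact counting interval 33.1 to 478). Of the 10, Slco2a1, Foxf1, Postn and Hp were highest in GADD45G 3. Slco2a1, a prostaglandin transporter, had 0.78, 0.977 and 27.5 CPM in GADD45G libraries, against 0.16 to 0.231 CPM in shLuc libraries (5.62, and 2.14 without GADD45G 3). Hp (haptoglobin) had 3.4, 2.6 and 55.4 CPM, against 0.866 to 1.00 CPM in shLuc libraries (4.44, and 1.65 without GADD45G 3), and Foxf1 and Postn stood at 5.34 and 4.58 with all libraries and at 4.06 and 3.32 without it. The few Foxf1 counts of the shLuc group lay mostly in shLuc 3. The others were Tgtp1, Tgtp2, Slc7a11 and Mx1.

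Downward, Trpc7, a calcium-permeable channel, had 1 count over the 3 GADD45G libraries, in GADD45G 1, against 113 in shLuc and 234 in GFP libraries. The level was 118-fold lower than in shLuc (95% exact counting interval 20.8 to 4720) and 209-fold lower than in GFP (37.1 to 8280), which covers counting error only. Fam198a had 0.39, 0.706 and 0.55 CPM in GADD45G libraries, against 19.1, 16.0 and 16.6 CPM in shLuc libraries and 3.9 to 5.24 CPM in GFP libraries (-4.96, SE 0.20, adjusted p = 8.35e-09 in edgeR). The rest of the set was Map2k6, St6galnac5, a sialyltransferase of brain gangliosides (-3.59), Fam181a (-3.31), Scrg1 (-3.14), Cacna2d3, a calcium channel subunit (-3.19), Lsamp (-3.01) and Cntn3 (-2.79), both neural adhesion molecules, and Gamt, the last enzyme of creatine synthesis (-3.07). All 10 were lower in every GADD45G library than in every control library, as the naming rule required.

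Some of the largest differences from GFP were not found against shLuc. Nid1 (nidogen-1), a basement membrane protein, had 3.34, 4.94 and 24.7 CPM in GADD45G libraries and 4.83, 5.05 and 4.96 CPM in shLuc libraries, against 1451, 1408 and 1445 CPM in GFP libraries (-7.03 against GFP). Its log2 fold change against shLuc was 1.15 (SE 0.59, adjusted p = 0.13 in edgeR). That value was -0.27 without GADD45G 3 (adjusted p = 0.267 in edgeR) and 1.58 without GADD45G 1 (adjusted p = 0.0234 in edgeR). Zfp820 and Zfp979, zinc finger genes, were likewise not called against shLuc (0.45 and 0.28) and were at -6.51 and -6.27 against GFP. Nov (CCN3), a matricellular protein, had 8.19, 7.98 and 7.97 CPM in GADD45G libraries, against 4.33, 3.99 and 3.75 CPM in shLuc libraries and 638 to 660 CPM in GFP libraries. It was thus lower than GFP by -6.34 and higher than shLuc by 0.99. Of the 8 largest upward differences from GFP, all 8 were higher against shLuc as well, among them Slfn8 (3.73 and 6.43 against shLuc and GFP) and the collagen Col6a5 (3.48 and 6.42).

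For 266 eligible genes at least 2-fold higher than GFP, the 95% interval against shLuc lay inside 1.5-fold. C3 led them. Bmp3, a bone morphogenetic protein, had 25.2, 27.2 and 23.1 CPM in GADD45G libraries and 26.2, 23.8 and 25.6 CPM in shLuc libraries (-0.01, SE 0.08, adjusted p = 0.952 in edgeR), against 1.14 to 2.29 CPM in GFP libraries (3.87). Ndrg1, a stress- and hypoxia-responsive gene, had 500, 502 and 430 CPM in GADD45G libraries and 508, 493 and 490 CPM in shLuc libraries, against 59.6 to 66.4 CPM in GFP libraries. Slc38a3, a glutamine transporter, and Gpr179 completed the set. Downward, 221 genes met the same rule. Gria1, an AMPA receptor subunit, had 34.8, 44.2 and 35.9 CPM in GADD45G libraries and 38.6, 37.9 and 38.3 CPM in shLuc libraries, against 375 to 393 CPM in GFP libraries, and Armcx4, Zfp944, Hebp2 and Zfp995 followed.

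In the reverse pattern, 56 of 775 genes at least 2-fold higher than shLuc (7.23%) and 57 of 681 at least 2-fold lower (8.37%) had an interval against GFP inside 1.5-fold. With no minimum of 2-fold, the interval against GFP lay inside 1.5-fold for 1649 eligible genes higher and 1565 lower than shLuc. Dusp1, a MAP kinase phosphatase, had 29.5, 35.1 and 43.6 CPM in GADD45G libraries and 41.7 to 43.9 CPM in GFP libraries, with 6.86 to 8.91 CPM in shLuc libraries (2.21 against shLuc, SE 0.15, and -0.24 against GFP). Lgals3 (galectin-3), Elobl and Slc38a2, an ATF4-responsive amino acid transporter, followed upward, with 2.18, 2.02 and 1.94 against shLuc. Ntm (neurotrimin) led the downward set with 14.0, 14.7 and 12.3 CPM in GADD45G libraries, against 90.6, 90.6 and 92.0 CPM in shLuc libraries and 14.4 to 16.9 CPM in GFP libraries (-2.75, SE 0.06). Ntsr2, a neurotensin receptor of astrocytes, followed at -2.39, and Fam107a, Tmcc3 and Adgra1 at -1.84, -1.81 and -1.73.

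Opposite calls against the controls were met by 526 eligible genes higher than GFP and lower than shLuc, and by 469 with the reverse. Chil1, a chitinase-like protein secreted by reactive astrocytes, had 76.0, 73.8 and 69.4 CPM in GADD45G libraries, against 212, 204 and 192 CPM in shLuc libraries and 16.8 to 16.9 CPM in GFP libraries (-1.48, SE 0.06, and 2.12). Ppp1r1b (DARPP-32), Cpxm1, Adra2a, an adrenergic receptor, and Icosl had log2 fold changes of -1.87, -1.38, -1.37 and -1.35 against shLuc and 2.12, 1.42, 2.29 and 2.42 against GFP. In the other direction, Dkk2, a Wnt modulator, had 3.34, 3.42 and 1.43 CPM in GADD45G libraries, against 0.462 to 0.69 CPM in shLuc libraries and 31.0 to 32.4 CPM in GFP libraries (2.26, SE 0.40, and -3.54). Areg, an EGF receptor ligand, had 42 counts in GADD45G against 3 in shLuc libraries, a 13.4-fold higher level (95% exact counting interval 4.27 to 67.4). The laminin chain Lama1, Slc9a2 and Npr1 made up the set.

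**Figure D3:**
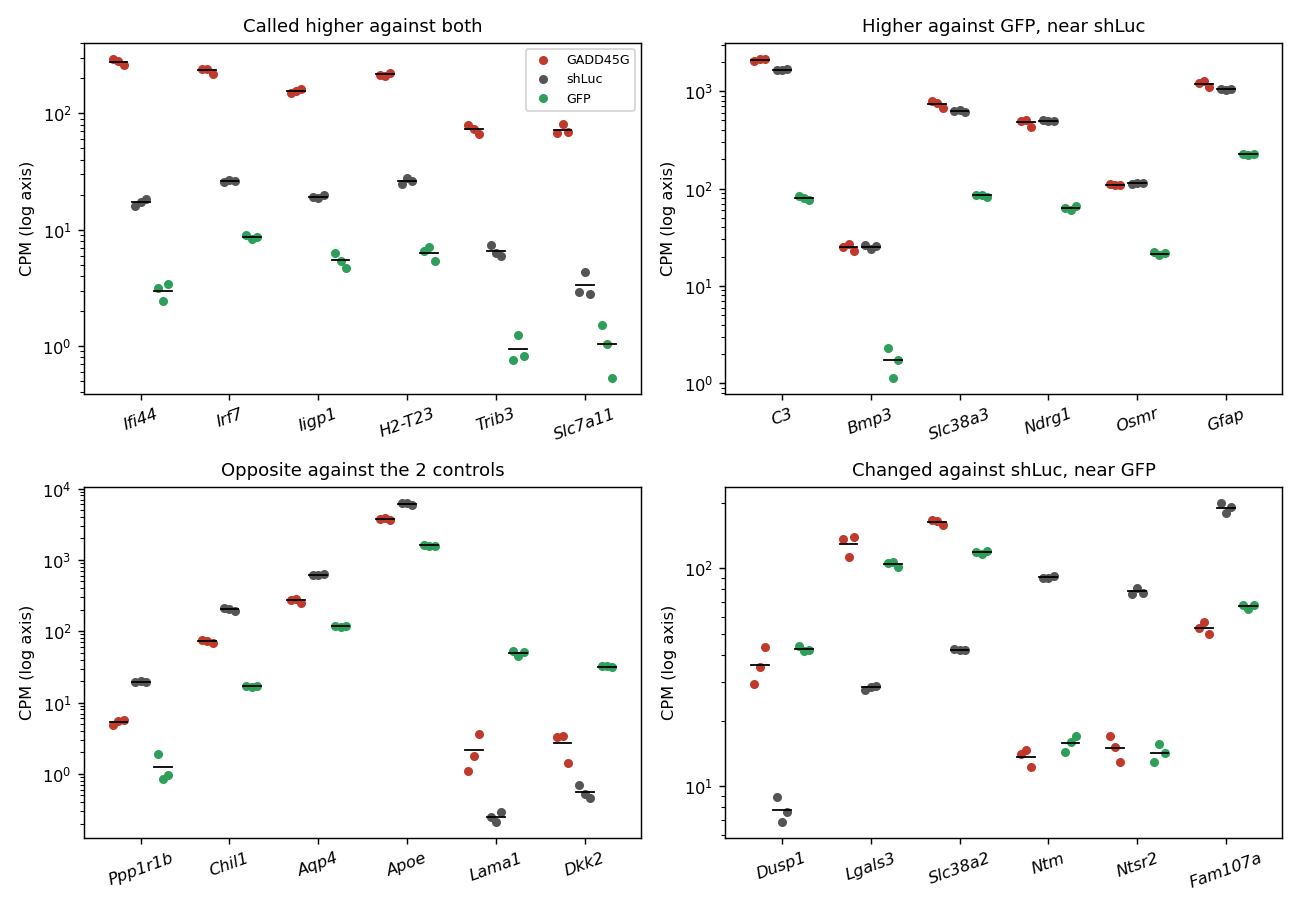
CPM on a log axis in each GADD45G (red), shLuc (grey) and GFP (green) library, with a line at the group mean, for genes called higher against both controls, higher against GFP but near shLuc, called in opposite directions, and changed against shLuc but near GFP. In the first panel the red points lie above both controls, with Ifi44 at 258 to 296 CPM in GADD45G libraries; in the second, red and grey points lie close together, as for Bmp3; in the third, red points lie between the controls.

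Markers of other cell types were examined beside these results. All 19 microglia and macrophage markers were detected in both groups, and 13 were lower in GADD45G than in shLuc libraries (median log2 fold change -1.85). Without GADD45G 3 all 19 were lower (median -3.27). Against GFP, with all libraries, 3 of 19 were lower, and 17 of 19 were higher in shLuc than in GFP libraries. The summed markers stood at 90.2 and 87.6 CPM in GADD45G 1 and 2 and 355 CPM in GADD45G 3, against 194 to 198 CPM in GFP libraries. GADD45G 1 and 2 thus lay below GFP and GADD45G 3 above it. Cx3cr1, the microglial fractalkine receptor, had 1.84, 2.23 and 3.19 CPM in GADD45G libraries, against 31.4, 30 and 26.6 CPM in shLuc libraries and 7.43 to 8.51 CPM in GFP libraries (-3.60, SE 0.16, adjusted p = 1.8e-08 in edgeR). Ctss, a lysosomal protease of macrophages, had 3.51, 3.85 and 122 CPM in GADD45G libraries, against 30.6 to 32.6 CPM in shLuc libraries, so its log2 fold change was 0.44 with all libraries and -3.12 without GADD45G 3. Against shLuc, interferon-stimulated, GTPase and MHC class I genes thus stood higher while the summed microglia markers stood lower, and the part of these cells in any list was not tested.

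Neuron markers summed to 240 to 261 CPM in GADD45G libraries, against 348 to 371 CPM in shLuc libraries and 555 to 575 CPM in GFP libraries. Of 7 tested against shLuc, 1 rose and 2 fell, and all 10 tested against GFP fell. Dcx, a marker of immature neurons, was at 0.165 to 0.434 CPM in GADD45G and 0.251 to 0.346 CPM in shLuc libraries, against 30.8 to 33.2 CPM in GFP libraries. Ependymal and motile cilia markers summed to 1020 to 1110 CPM in GADD45G libraries, against 897 to 931 CPM in shLuc libraries and 372 to 377 CPM in GFP libraries, and 6 of 10 rose against shLuc and all 10 against GFP. Foxj1, the master factor of motile cilia, rose by 0.23 and 1.64. Oligodendrocyte lineage markers summed to 229 to 244 CPM in GADD45G libraries, against 242 to 248 CPM in shLuc libraries and 667 to 676 CPM in GFP libraries. The members did not follow the sum, since 3 of 6 rose and 1 fell against shLuc, and likewise 3 rose and 1 fell against GFP. Endothelial markers summed to 15.4, 15.0 and 173 CPM in GADD45G libraries, against 19.8 to 22.2 CPM in shLuc libraries and 136 to 144 CPM in GFP libraries, and the 2 of 5 that rose with all libraries were not called without GADD45G 3, when 2 fell. Of 5 sex-linked transcripts, Xist fell by 0.49 against shLuc and the 4 from the Y chromosome were not called.

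**Figure D4:**
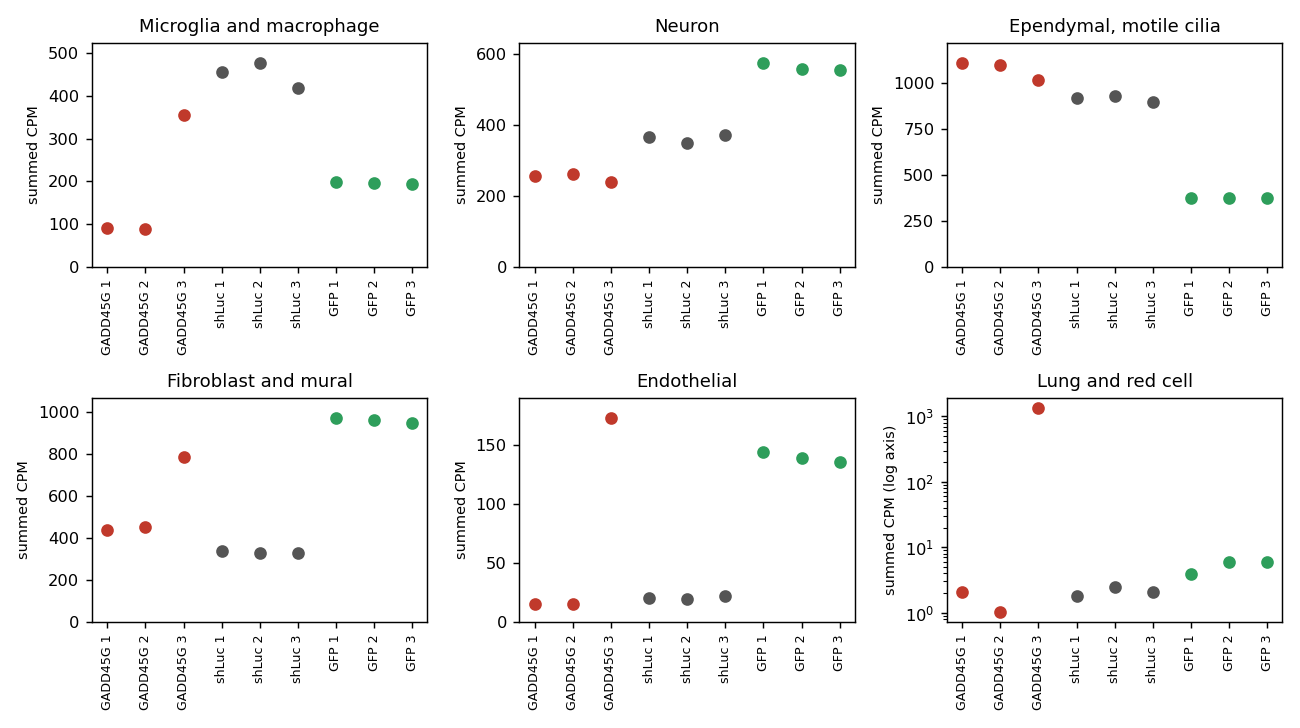
Summed CPM of the marker genes of 6 cell types or tissues in each GADD45G (red), shLuc (grey) and GFP (green) library, on linear axes from 0 except for the lung and red cell panel, which has a log axis. GADD45G 3 stands above GADD45G 1 and 2 in the microglia, fibroblast, endothelial and lung panels, and above all other libraries in the endothelial panel and the lung panel, with 1340 CPM of lung and red cell markers, and the shLuc libraries hold the highest microglia sums, 419 to 477 CPM.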

How the data were processed

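Read counts per gene were deposited by the authors in 1 table per experiment, per the file headers. The submitters' processing notes name STAR 2.5, HTSeq 0.6.1, mm10 and DESeq2, without parameters, and the strand setting used in counting is not given there. Columns named G45g were taken as GADD45G and shCtrl as shLuc, with the replicate number in the name. The deposited signal columns are the authors' normalized counts. The deposited FPKM values, log2 fold changes, and p-values and adjusted p-values of the authors were not used here.

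Counts of GADD45G, shLuc and GFP were joined on gene identifier over 22845 genes (25923 and 24509 listed per table). Each pair of groups was fitted on its 6 libraries with edgeR 4.0.16 in R 4.3.3 (TMM factors, filterByExpr, quasi-likelihood F test, no covariate), and genes with a Benjamini-Hochberg adjusted p under 0.05 over all genes tested were called. Log2 fold changes are GADD45G minus control. A group with 0 counts was set at a floor of 3, and groups with 1 to 3 counts were given exact counting intervals. The steps were tested on simulated data. Promoters were matched by symbol in the RefSeq table (GRCm38.p6).

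The comparison and the gene lists were chosen with earlier results of these data known. Named genes were the kinase list; the 10 genes per direction with the largest difference that held against both controls; 5 per direction with opposite calls, with an interval inside 1.5-fold of shLuc, or of GFP; from each list, at most 4 members by smallest p; and the 8 per direction with the largest change against GFP. These were protein coding, with a mean of at least 1 CPM. Some were left out for length, a few genes are not reported here, and other list members, among them Osmr, Gfap, Serpina3n and those of the marker lists, were named after their values were seen. Alternatives were RLE and upper quartile factors, DESeq2 1.42.0, limma-voom (limma 3.58.1), no filter, a filter of 1 CPM in 3 libraries, fits of 9 or 12 libraries, the replicate number as a block and each library left out.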

Additional observations from a re-analysis of the deposited data

Results flagged for a closer look

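In genes listed in the overexpression table but not in the knockdown table, which no comparison here could use, GADD45G 3 held 0.25% of its listed counts, against 0.00774% and 0.00741% in GADD45G 1 and 2 and 0.0127% to 0.0139% in GFP libraries. Of these genes, 103 had at least 30 counts in GADD45G 3 and at most 5 over the other 5 libraries, among them Mgp (11426 counts), Hbb-bs (4653), Chil3 (3365), Alb (2171) and Scgb3a2 (1654), while 0 genes had at least 30 counts in each GADD45G library. Among the joined genes 85 behaved in the same way and held 0.117% of its counts, and 0 of them passed the filter on low counts.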

How the results depend on the processing

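The counts of genes called against shLuc, in each direction and at 2-fold, and the counts held against both controls with no fold minimum stayed within 1.5 times their value under every alternative run. With that minimum, genes at least 2-fold lower against both numbered 434 without GADD45G 3, beside 278. Genes called ranged from 5995 (without shLuc 2) to 7915 (without GADD45G 3), beside 7206. Genes held against both ranged from 1688 (12 libraries in one fit) to 2483 upward and from 1552 to 2094 downward. DESeq2 called 6572 and limma-voom 7359. Scaling moved the median log2 fold change of all genes by less than 0.1. Same-numbered GADD45G and shLuc libraries did not deviate together (correlations 0.0139, -0.0812 and -0.0452). GADD45G and GFP libraries were not examined in this way. The numbers are not stated to mark a shared culture, so they were not taken to pair samples. With a replicate block 6848 genes were called and 2076 and 1740 held. Of 2868 log2 fold changes of named genes, 2815 stayed on their side of the threshold and 11 gained the call. Another 40 lost the call with their sign kept, and 2 lost it and changed sign (changes of sign in values not called were not counted). Those 2 were Vwf, at -0.01594 without GADD45G 3 and at up to 2.669 without another library, and Ager, at -0.44 and up to 3.367; the cause was not tested. Of the list counts, at most 8 per setting moved by over 1.5 times. Depth limits genes with a few counts per library, such as Ifnb1 and Il6.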
